A study of Mus musculus with 5 samples.

Results

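The genes described here are the constitutive subunits of the proteasome and their close helpers, measured by single-cell RNA sequencing of mouse spleen. They were chosen by symbol: every gene named Psma, Psmb, Psmc or Psmd with a number, leaving out the immunoproteasome genes Psmb8, Psmb9 and Psmb10 and the pseudogenes. The rule found 37 of the 32285 genes in the feature tables. Of these, 34 belong to the proteasome of most tissues: 7 subunits of the alpha ring, 7 of the beta ring, 6 ATPases, 3 other subunits of the 19S base, 8 of the 19S lid, and 3 chaperones of 19S assembly (Psmd5, Psmd9, Psmd10). Psma8 (testis) and Psmb11 (thymus) are restricted to other tissues, and Psmc3ip, a recombination factor, is no proteasome subunit although its symbol meets the rule.

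The proteasome degrades proteins that carry ubiquitin. Its 20S core is a barrel of alpha and beta rings, in which Psmb5, Psmb6 and Psmb7 supply the active sites, and its 19S cap binds, unfolds and feeds in substrates. In cells exposed to interferon, and in many immune cells at rest, Psmb8, Psmb9 and Psmb10 replace Psmb5, Psmb6 and Psmb7, which changes the peptides left for presentation on MHC class I.

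C57/BL6 mice received an intravenous infusion 48 h before the spleen was taken. The 5 groups were saline, live or apoptotic splenic cells from Balbc mice (allogeneic), and live or apoptotic splenic cells from B6 mice (isogeneic). Digested spleens were enriched by magnet for CD45-positive cells and, separately, for dendritic cells (DCs), and both fractions were mixed in equal parts, so that shares of cells do not reflect the spleen. Each group is 1 library, the labels do not say how many mice it holds, and no test between groups was made. All intervals are at 95% and cover counting error only.

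The libraries held between 12742889 (live Balbc) and 32641733 (live B6) unique molecular identifiers (UMIs, each a counted RNA molecule). The filter left 2902 cells for saline, 1186 for live Balbc, 3685 for live B6, 2118 for apoptotic Balbc and 6380 for apoptotic B6, and any 2 libraries shared at most 8 barcodes. The live B6 library stood apart in Gm42418, a gene that overlaps ribosomal RNA: its level in the cDC2-like cells was 59977 CPM (UMIs scaled to a common total per class and library), against 12791 to 18859 CPM in the other libraries. Clustering gave 31 clusters, and 11 classes had at least 30 cells and 50000 UMIs in all 5 libraries. Classes are named "like" a cell type from marker genes, and 2 of them stayed unnamed: cluster 14, led by Nfkbid, Pclaf and Irf4, and cluster 21, led by Coch, Cxcl12 and Npnt. Cluster 14 had 5 of 13 B markers raised over the other cells. Cluster 21 had all 11 cycling markers, 7 of 16 cDC2 markers (43.75%) and 40% of the stromal markers raised. Clustering at resolution 2 gave a cycling cDC2-like cluster (169 cells) and a stromal-like one (30 cells), whose cells were not matched to cluster 21.

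Promoter windows from RefSeq (GRCm38.p6; 250 bases before to 50 after the start) were found for 30 of the 37 genes. They are shown for both active-site genes with a window, for the gene of the largest difference below (Psma5) and for 2 cap genes among those of the lowest ratios (Psmd2, a ubiquitin-receptor scaffold of the base, and Psmc1, a base ATPase). In the first 2, capitals mark TGACNNNGC, the core of the antioxidant response element, which NRF1 binds. In the last 2, capitals mark CCGGAAG, the core of ETS factor sites, here on the reverse strand.

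Psmb5 (chr14:54617946-54618245, minus strand): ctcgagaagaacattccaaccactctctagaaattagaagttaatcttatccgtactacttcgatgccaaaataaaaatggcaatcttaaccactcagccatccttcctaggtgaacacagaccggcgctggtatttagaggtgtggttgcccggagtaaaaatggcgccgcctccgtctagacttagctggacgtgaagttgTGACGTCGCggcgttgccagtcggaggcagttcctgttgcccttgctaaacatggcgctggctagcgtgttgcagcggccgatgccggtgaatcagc

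Psmb6 (chr11:70525107-70525406, plus strand): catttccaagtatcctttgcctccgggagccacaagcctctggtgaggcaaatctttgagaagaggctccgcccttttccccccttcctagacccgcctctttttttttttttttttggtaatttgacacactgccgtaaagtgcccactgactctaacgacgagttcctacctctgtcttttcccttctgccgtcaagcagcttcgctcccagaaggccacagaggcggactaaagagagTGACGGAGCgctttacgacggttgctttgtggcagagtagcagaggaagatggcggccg

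Psma5 (chr3:108256676-108256975, plus strand): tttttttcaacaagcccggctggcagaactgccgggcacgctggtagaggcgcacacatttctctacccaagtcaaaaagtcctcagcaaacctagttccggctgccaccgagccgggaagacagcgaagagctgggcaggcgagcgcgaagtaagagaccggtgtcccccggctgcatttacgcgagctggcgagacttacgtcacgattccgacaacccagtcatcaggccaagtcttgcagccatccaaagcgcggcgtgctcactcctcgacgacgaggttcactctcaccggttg

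Psmd2 (chr16:20651402-20651701, plus strand): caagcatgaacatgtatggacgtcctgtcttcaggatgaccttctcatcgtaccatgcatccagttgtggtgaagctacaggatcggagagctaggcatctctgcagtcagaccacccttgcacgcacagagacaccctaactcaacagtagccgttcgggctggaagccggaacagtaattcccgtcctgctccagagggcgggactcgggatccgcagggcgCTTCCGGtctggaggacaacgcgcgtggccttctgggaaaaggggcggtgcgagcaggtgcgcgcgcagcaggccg

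Psmc1 (chr12:100109952-100110251, plus strand): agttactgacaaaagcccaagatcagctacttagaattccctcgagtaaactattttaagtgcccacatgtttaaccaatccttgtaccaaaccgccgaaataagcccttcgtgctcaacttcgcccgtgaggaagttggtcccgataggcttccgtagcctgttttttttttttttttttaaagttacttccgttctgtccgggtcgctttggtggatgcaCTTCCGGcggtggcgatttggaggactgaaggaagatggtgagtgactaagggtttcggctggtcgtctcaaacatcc

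On either strand, TGACNNNGC was found in 5 of the 30 genes (16.7%), among them Psmb5 and Psmb6, and in 14% of 27025 genes with a window. The Psma5 window held no match and has no capitals. CCGGAAG was found in 11 of 30 (36.7%), against 9.93% of all genes, and 9 of the 11 encode cap subunits (all but Psma6 and Psmc3ip). CCAAT was found in 13 of 30 (43.3%; all genes 41.1%), including 5 of the 7 alpha ring genes. The core of nuclear respiratory factor 1 sites, GCGC and GCGC 2 bases apart, was found in 6 of 30 (20%; all genes 7%). The core of the interferon-stimulated response element, GAAA and GAAA 2 bases apart, was found in 3 of 30 (10%; all genes 3.99%), namely Psmd4, Psmd9 and Psmb3. Such matches describe the letters only.

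Erythroid-like cells held the highest level of these genes. Their UMIs summed over the 37 genes were 7693 CPM in saline, 7743 in live Balbc, 7461 in live B6, 7499 in apoptotic Balbc and 7467 in apoptotic B6. The 5 libraries differed by at most 1.04-fold, and no other class reached the lowest of these values. The next were unnamed cluster 14 with a mean of 5226 ± 727 CPM (SD over the 5 libraries) and unnamed cluster 21 with 4762 ± 525 CPM. The cDC1-like cells followed with 4368 ± 515 CPM, pDC-like cells with 3941 ± 456, natural killer-like cells with 3841 ± 358 and cDC2-like cells with 3819 ± 655. These ranges overlap, and the order among them changes between libraries. Red pulp macrophage-like cells had 3278 ± 576 CPM, B-like cells 3067 ± 238, T-like cells 2902 ± 231 and marginal zone B-like cells the lowest level, 2706 ± 186 CPM. This order depended on the total. With immunoglobulin, ribosomal protein, mitochondrial and a few other abundant genes left out of it, red pulp macrophage-like cells were the lowest at 4361 CPM. Marginal zone B-like cells then had 4804 CPM, B-like cells 4981 and T-like cells 5190. The SD here mixes treatments, since each library is another group. Erythroid-like cells also carried cycling markers (11 genes), which summed to 3522 to 3949 CPM over the libraries, against 94.2 to 450 in cDC2-like cells. All 11 were likewise raised in cluster 21. Cycling cDC1-like cells, with enough cells in saline only, had 5159 CPM there, against 4186 in cDC1-like cells. The part of cell cycling in the class levels was not tested.

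**Figure D1:**
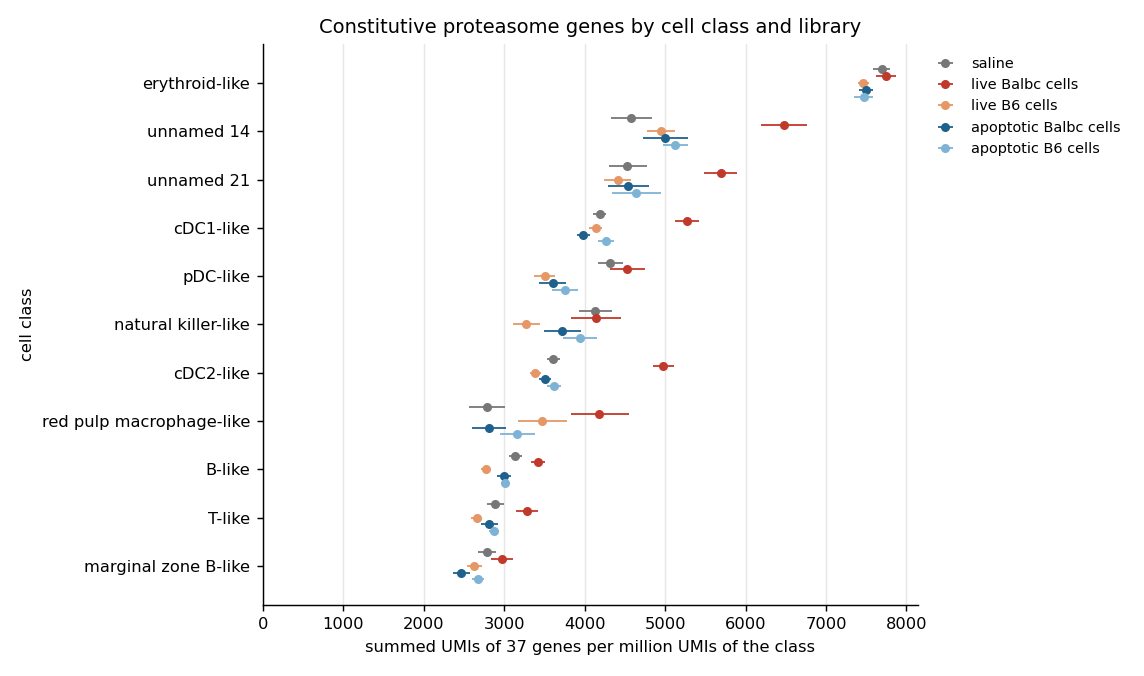
Summed level of the 37 genes (x axis, CPM) in each of the 11 cell classes (y axis) and library (colour). Bars are exact Poisson intervals at 95%. Erythroid-like cells lie between 7461 and 7743 CPM in all libraries, and the live Balbc library is the highest one in every class.

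Some of the classes with too few cells in some libraries are given here. Platelet or megakaryocyte-like cells had 4784 to 5581 CPM in 4 libraries. Over all libraries together, including those with too few cells, neutrophil-like cells had 1837 CPM and plasma cell-like cells 1867 CPM. The latter is 6409 CPM when immunoglobulin, ribosomal protein, mitochondrial and a few other abundant genes are left out of the total. Barcodes of 10 to 100 UMIs, which hold free RNA, contained the genes at 4018 to 4758 CPM in 4 libraries, within the range of the classes, and its part in the class levels was not tested.

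Erythroid-like cells were the highest class by mean level for 34 of the 37 genes, while the lowest class varied between genes. The exceptions were Psmd8 (lid), highest in cDC2-like cells at 143 CPM, Psmd10 (gankyrin, a chaperone), highest in natural killer-like cells at 44.4 CPM, and Psmb11, which had 1 UMI in all. The share of all genes that were highest in erythroid-like cells was not computed. Whether 34 of 37 is particular to these genes was therefore not tested. Psmd7, a lid subunit that pairs with the deubiquitinase Psmd14, differed most between classes among the subunits: its level in erythroid-like cells was 471 CPM in saline, 437 in live Balbc, 384 in live B6, 439 in apoptotic Balbc and 429 in apoptotic B6, and its mean was 5.76 times its lowest class mean (natural killer-like, 75.1 CPM). Psmb1, a beta ring gene without an active site, differed least among the 20S subunits (1.88 times). Across 101 class-and-library sums, each gene's log2 level was correlated with the sum of the others: Pearson's r was highest for Psma4 (0.87) and lowest for Psmb11 (0.08), Psma8 (0.35) and Psmd10 (0.38). These sums share libraries and depth, and r is a description. Psma8 had 111 UMIs, 51 of them in erythroid-like cells. Psmc3ip had 961 UMIs and, in erythroid-like cells, 24.3 to 37.4 CPM. Its level in unnamed cluster 21 was 21.5 to 38.0 CPM, while the lowest class, marginal zone B-like, averaged 1.95 CPM.

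**Figure D2:**
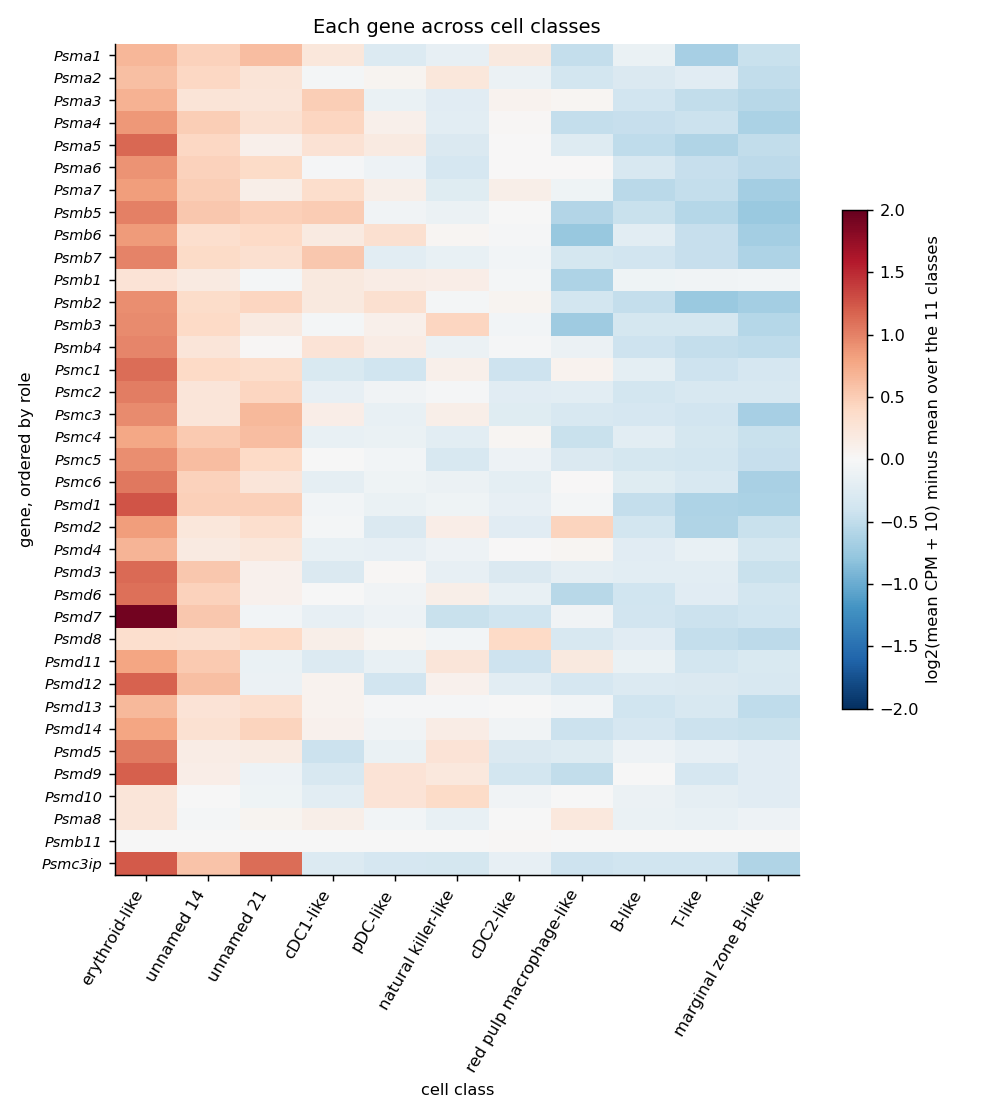
Level of each gene (y axis, by role) in each class (x axis), as log2(mean CPM + 10) minus its mean over the 11 classes. The erythroid-like column is the highest for most rows, and Psmd7 is the row with the strongest colour there. The mean here is over the 5 libraries and their pooled sum, unlike in the text. By it Psmd8 is highest in unnamed cluster 21 (0.398), closely followed by cDC2-like cells (0.391).

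The 10 genes most like the sum of the 37 across the 101 sums, among 4954 genes with a median of at least 20 CPM, were Cox5b (r = 0.91), Atp5b (0.90), Atp5c1, Ybx1, Hint1, Cox5a, Ranbp1, Ndufc2, Uqcr10 and Ndufv2. For the immunoproteasome genes, r was 0.17 (Psmb8), 0.28 (Psmb9) and 0.39 (Psmb10).

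Among the 11 classes, the ratio of live Balbc to live B6 was highest in cDC2-like cells, the type 2 conventional DCs that present antigen to T cells. Their summed level was 3611 CPM in saline, 4979 in live Balbc, 3389 in live B6, 3505 in apoptotic Balbc and 3614 in apoptotic B6. The live Balbc library alone was apart, and the other 4 spanned 3389 to 3614 CPM. The ratio was 1.47 (1.42 to 1.52) to live B6, 1.38 (1.33 to 1.43) to saline and 1.42 (1.37 to 1.47) to apoptotic Balbc. For apoptotic Balbc against apoptotic B6 it was 0.970 (0.939 to 1.00). Of 34 genes with at least 50 UMIs in the 2 sums together, 15 were at least 1.5-fold higher in live Balbc than in live B6 and 0 at least 1.5-fold lower, where 10% and 12% of all 6752 genes passed these limits. Their median log2 ratio was 0.51, against -0.04 over all genes. Against saline, 9 of 34 were higher by that measure (10.4% of all genes) and 0 lower (13.8%). Against apoptotic Balbc, 10 of 33 were higher (10.6%) and 0 lower (8.15%). Between both apoptotic libraries 0 of 34 were higher (3.65%) and 0 lower (2.93%). Live Balbc was the highest of the 5 libraries for 30 of 35 genes, and for 27.7% of all 9120 genes. The 5 others were Psmc1, Psmd2, Psmd5, Psmd6 and Psmd10. The comparisons share the live Balbc library and are not independent.

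**Figure D3:**
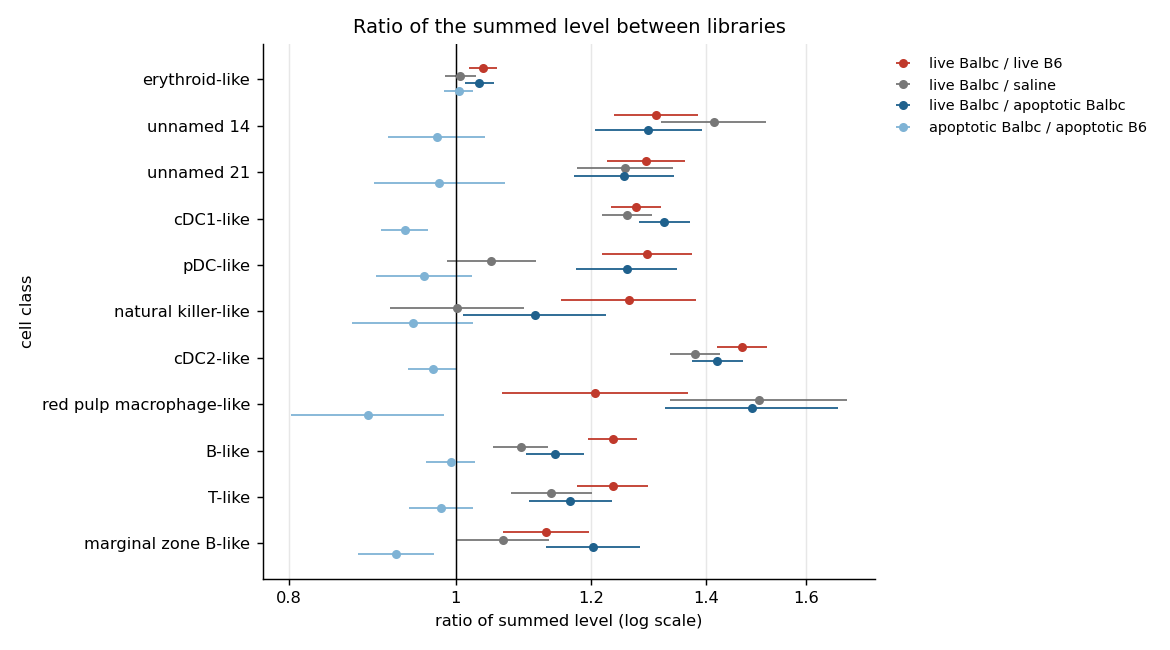
Ratio of the summed level between 2 libraries (x axis, log scale) in each class (y axis), with exact conditional Poisson intervals at 95%. For live Balbc against live B6 (red), cDC2-like cells lie highest at 1.47 and erythroid-like cells lowest at 1.04.

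By role, the alpha ring had the highest ratio of live Balbc to live B6, to saline and to apoptotic Balbc, and the chaperones and the base subunits that are no ATPases the lowest. In live Balbc against live B6, the summed alpha ring was 1.64 times as high (1.55 to 1.73; 6 of 7 genes past 1.5-fold), the active-site subunits 1.57 times (1.41 to 1.75; 2 of 3) and the other beta subunits 1.43 times (1.33 to 1.55; 2 of 4). The 6 ATPases were 1.45 times as high (1.31 to 1.61; 4 past 1.5-fold), the 8 lid genes 1.34 times (1.23 to 1.46; 1 past 1.5-fold), the 3 other base genes 1.11 times (0.973 to 1.26) and the 3 chaperones 1.04 times (0.787 to 1.37), with 0 past it in both. Against saline the alpha ring gave 1.48, the active-site subunits 1.44, the other beta subunits 1.32, the ATPases 1.45, the lid 1.32, the other base genes 1.11 and the chaperones 1.02. Against apoptotic Balbc the same sums gave 1.57, 1.53, 1.36, 1.33, 1.34, 1.15 and 1.06. Differences between roles were not tested.

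Psma5, an alpha ring subunit, had the largest ratio of the members with at least 50 UMIs. Its level in cDC2-like cells was 87.2 CPM in saline, 189 in live Balbc, 90.5 in live B6, 72.9 in apoptotic Balbc and 88.5 in apoptotic B6. Live Balbc was the only library above 100 CPM, at 2.09 times live B6 (1.73 to 2.52) and 2.16 times saline (1.78 to 2.64). Psmb6, the caspase-like active site, read 139, 202, 108, 136 and 147 CPM in the same order, 1.87 times as high as live B6 (1.57 to 2.24). Psma4 (alpha ring) read 165, 254, 142, 140 and 139 CPM, 1.79 times as high. Both were highest in live Balbc.

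Psmb5, the chymotrypsin-like active site, read 141 CPM in saline, 199 in live Balbc, 124 in live B6, 131 in apoptotic Balbc and 134 in apoptotic B6. Its ratio was 1.61 (1.35 to 1.91) to live B6 and 1.41 (1.19 to 1.68) to saline. Psmb7, the trypsin-like active site, read 56.5, 84.8, 77.7, 49.9 and 48.1 CPM. Both live libraries were high, so that its ratio was 1.09 (0.849 to 1.4) to live B6 and 1.5 (1.14 to 1.97) to saline. The lowest ratios to live B6 were those of Psmd5 (0.718; 0.404 to 1.22), Psmd2 (0.843; 0.648 to 1.09) and Psmc1 (0.964; 0.672 to 1.36), and the 3 intervals include 1.

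**Figure D4:**
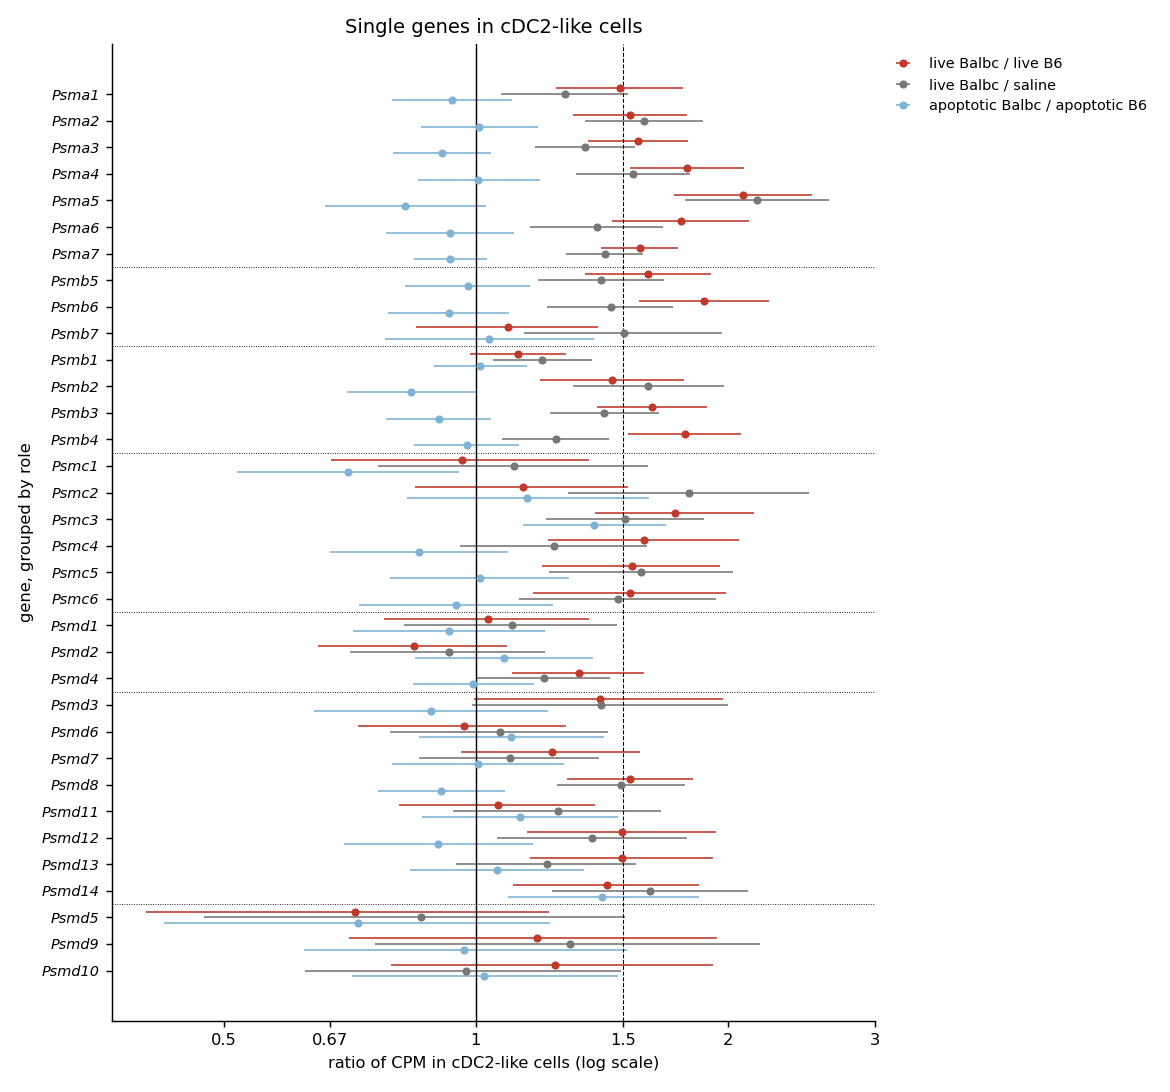
Ratio of CPM in cDC2-like cells (x axis, log scale) for each gene with at least 50 UMIs in the 2 sums together, grouped by role, with exact conditional Poisson intervals at 95%; the dashed line is 1.5-fold. Psma5 lies at 2.09 for live Balbc against live B6 (red), and the ratios of both apoptotic libraries (blue) lie around 1.

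A few genes differed from saline in most classes. How many of all genes did so was not counted. The classes of a comparison come from the same 2 libraries, so they are not replicates. Psmb7 was higher in both live libraries: in live B6 in 9 of 10 classes (median ratio 1.44; erythroid-like 1.35) and in live Balbc in 9 of 9 (median 1.55). Psmc2, an ATPase, was higher in live B6 in 10 of 10 classes (median 1.36) and in live Balbc in 8 of 8 (median 1.34). Between live Balbc and live B6 the median ratio was 1.01 for Psmb7 and 1.05 for Psmc2. Of 3 other genes, Psmb4 was lower in live B6 than in saline in 10 of 11 classes (median 0.765), Psmb6 in 9 of 10 (median 0.774) and Psma6 in 10 of 10 (median 0.791). In live Balbc against saline, their medians were 1.13 for Psmb4, 1.03 for Psmb6 and 1.19 for Psma6, and against live B6 they were 1.43, 1.34 and 1.37.

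Other measures moved with the cDC2-like level. The cDC2-like cells of live Balbc were 121 cells with a median of 8672 UMIs, against 343 to 433 cells and 4002 to 6888 UMIs elsewhere. Classical monocyte markers (11 genes) summed to 6968 CPM in live Balbc and 3341 to 4279 CPM in the others; Vcan was at 0 in saline, live B6 and apoptotic Balbc, and Chil3 also in apoptotic Balbc. Red pulp macrophage markers (13 genes) summed to 803 CPM, against 237 to 450. Cycling markers (11 genes) summed to 450 CPM, against 94.2 to 148. The 16 cDC2 markers summed to 4447 CPM, against 5250 to 5656. Their part in the result was not tested. The class held clusters 1, 3 and 4, with 47, 10 and 64 live Balbc cells, and the ratio to live B6 was 1.54, 1.64 and 1.36 within each. In cells with no UMI of 10 cell cycle genes, a choice made after seeing the data, it was 1.49 (1.42 to 1.56), and 1.35 (1.29 to 1.42) to saline. With each cell thinned to 1000 UMIs, a mean cell held 4.71 UMIs of these genes in live Balbc and 3.31 to 3.61 in the others.

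Live Balbc was above live B6 in the other 10 classes too, with lower ratios than in cDC2-like cells. It gave 1.27 (1.23 to 1.32) in cDC1-like cells, 1.29 (1.22 to 1.37) in pDC-like cells, 1.26 (1.15 to 1.38) in natural killer-like cells, 1.23 (1.19 to 1.28) in B-like cells, 1.23 (1.18 to 1.29) in T-like cells and 1.13 (1.07 to 1.2) in marginal zone B-like cells. Against saline, cDC1-like cells gave 1.26 (1.22 to 1.30), B-like cells 1.09 (1.05 to 1.13), pDC-like cells 1.05 (0.988 to 1.11) and natural killer-like cells 1.00 (0.915 to 1.10). In B-like cells the median of all genes was -0.20 (log2) in that comparison. In cells with no UMI of 10 cell cycle genes, the ratio to live B6 was 1.11 (0.964 to 1.27) in natural killer-like cells. It was 1.11 (0.931 to 1.31) in red pulp macrophage-like cells and 1.10 (0.986 to 1.23) in unnamed cluster 14, and these intervals include 1. T-like cells then gave 1.14, marginal zone B-like cells 1.15, cDC1-like cells 1.21, B-like cells 1.24 and pDC-like cells 1.27, with intervals above 1. The B-like cells of live Balbc were mostly cluster 9, led by Ifit3 (237 of 391), and those of live B6 mostly cluster 7 (678 of 1158). Within B-like clusters 6, 7 and 8 the ratio of live Balbc to saline was 1.04 (0.943 to 1.14), 0.994 (0.880 to 1.12) and 1.01 (0.931 to 1.09). In cluster 9 it was 1.24 (1.11 to 1.38). To live B6 the ratios within clusters 6, 7, 8 and 9 were 1.19, 1.15, 1.11 and 1.27.

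Against saline, the ratio was higher in red pulp macrophage-like cells and in unnamed cluster 14 than in cDC2-like cells. Red pulp macrophage-like cells, which clear old red cells, had 2782 CPM in saline, 4178 in live Balbc, 3465 in live B6, 2807 in apoptotic Balbc and 3159 in apoptotic B6. Live Balbc, with 35 such cells, was the highest, at 1.5 times saline (1.33 to 1.69), 1.49 times apoptotic Balbc (1.32 to 1.67) and 1.21 times live B6 (1.06 to 1.37). With at least 2000 UMIs per cell the ratio to saline was 1.33, and as a mean of cells 1.86. Unnamed cluster 14 had 4581, 6476, 4948, 4999 and 5128 CPM in the same order, and live Balbc (36 cells) was the highest, at 1.41 times saline (1.32 to 1.52). Of 28 genes with at least 50 UMIs, 13 were at least 1.5-fold higher than in saline (15.3% of all genes) and 0 lower (16.7%). In cells of this cluster with no UMI of 10 cell cycle genes, the ratio to saline was 1.13 (0.992 to 1.29).

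In cDC1-like cells, the cross-presenting DCs, 3 of 34 genes were at least 1.5-fold higher in live Balbc than in live B6 (6.5% of all genes) and 0 lower (8.02%). Their summed level was 4186 CPM in saline, 5269 in live Balbc, 4136 in live B6, 3982 in apoptotic Balbc and 4264 in apoptotic B6. Against saline, 8 of 34 genes were at least 1.5-fold higher in live Balbc (8.59% of all genes) and 0 lower (9.19%). Against apoptotic Balbc, 9 of 34 were higher (9.56%) and 0 lower (5.44%). The 3 genes past the limit against live B6, a count near the share over all genes, were Psmd9, Psmb2 and Psma4. Psmb2 (beta ring) read 105, 193, 116, 114 and 124 CPM in that order, 1.67 times as high as live B6 (1.38 to 2.01), with live Balbc above all others. Psma4 read 200, 307, 202, 193 and 221 CPM (1.52; 1.32 to 1.76). Psmd9, a chaperone, read 18.9, 31.5, 15.9, 20.3 and 20.6 CPM (1.98; 1.2 to 3.22). The lowest ratios were those of Psmd11 (0.822), Psmd1 (0.933) and Psmb7 (0.978), whose intervals include 1. Live Balbc held 68 cDC1-like cells, and its cell cycle list was 1.73 times that of live B6.

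Erythroid-like cells gave 1.04 (1.02 to 1.06) against live B6 and 1.01 (0.985 to 1.03) against saline, with 0 of 35 genes past 1.5-fold either way in the former (2.63% of all genes higher, 10.2% lower). The highest ratios to live B6 were those of Psma1 (1.24), Psmb4 (1.19) and Psmc4 (1.17), and the lowest those of Psmd5 (0.830), Psmd11 (0.880) and Psmd3 (0.905). Psmb5 read 331 CPM in saline, 303 in live Balbc, 281 in live B6, 291 in apoptotic Balbc and 306 in apoptotic B6, and live Balbc lay within the range of the others. The erythroid-like cells of live B6 were 313 cells with a median of 3605 UMIs, against 49 to 103 cells and 26155 to 43640 UMIs elsewhere.

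The immunoproteasome genes were read against the active-site genes they replace. Psmb8, Psmb9 and Psmb10 made up 25.2% (24.5 to 25.9) of the UMIs of the 6 genes in erythroid-like cells over all libraries. Their share there was 21.8% in saline, 35.1% in live Balbc, 24.2% in live B6, 24.2% in apoptotic Balbc and 23.2% in apoptotic B6, so that live Balbc alone stood apart. With each cell thinned to 1000 UMIs it was 29.8% in saline and 37.2% in live Balbc. The thinned shares rest on few UMIs, from 80 and 49 cells of 1000 UMIs each. No interval was computed for them, and whether they differ was not tested. In all UMIs of the erythroid-like cells, Psmb9 read 30.9, 114, 50.4, 39.6 and 26.7 CPM. Psmb8 read 75.2, 149, 69.6, 83.4 and 85.4 CPM, and both were highest in live Balbc. Psmb6 read 311, 257, 241, 277 and 293 CPM. In cDC2-like cells the share was 70.1%, 75%, 72.7%, 70.5% and 70.1% in the same order. In B-like cells it was 66.6%, 77.1%, 69.5%, 69.7% and 67.8%, and in marginal zone B-like cells 71.5%, 80.8%, 72.9%, 72.0% and 71.5%. In each of these 4 classes live Balbc had the highest share. Platelet or megakaryocyte-like cells ranged from 45.9% to 50.1%.

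**Figure D5:**
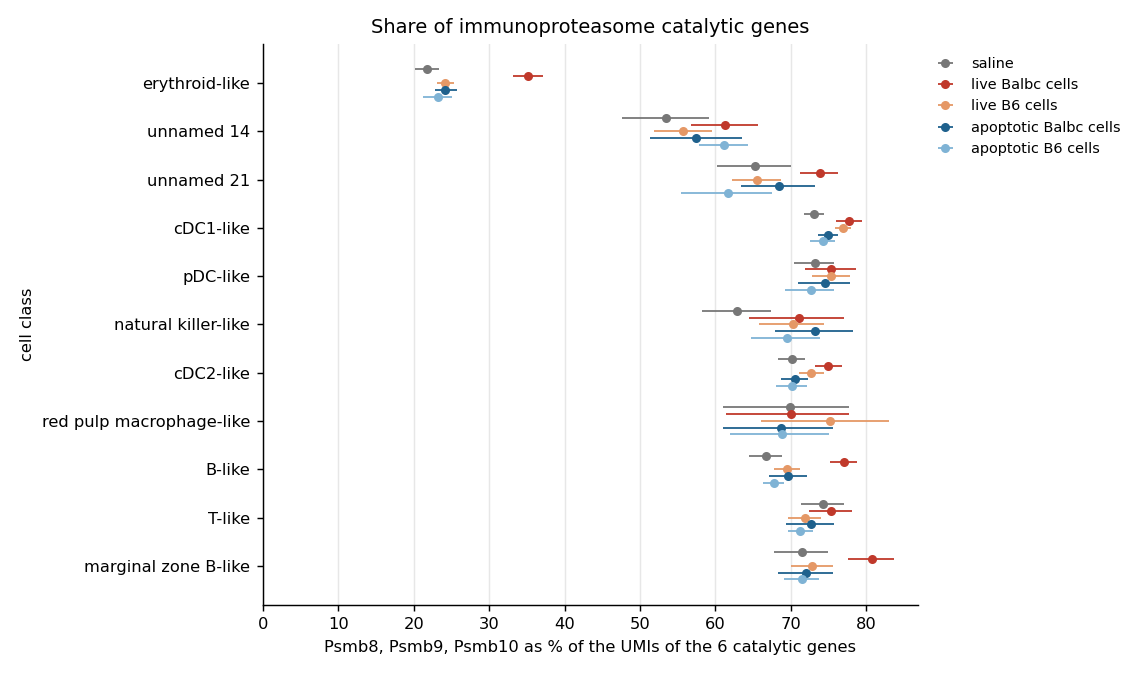
Share of Psmb8, Psmb9 and Psmb10 in the UMIs of the 6 catalytic genes (x axis, %) by class (y axis) and library (colour), with Clopper-Pearson intervals at 95%. Erythroid-like cells lie at 21.8% to 24.2% except in live Balbc (35.1%).

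Other genes of the pathway were read in cDC2-like cells, live Balbc against live B6. The 3 immunoproteasome genes were 1.77 times as high (1.66 to 1.88; 3 of 3 past 1.5-fold) and 1.84 times as high as in saline. The activators, inhibitor and adaptors were 1.59 times as high (3 of 7 past 1.5-fold: Psme1 and Psme2, which open the core, and Psmf1, an inhibitor). Psme2 read 242 CPM in saline, 527 in live Balbc, 266 in live B6, 235 in apoptotic Balbc and 265 in apoptotic B6. The core assembly factors were 1.43 times as high (0 of 4), and the maturation factor Pomp 1.43 times. The list of NRF1, the factor that restores proteasome genes when the proteasome is inhibited, gave 1.01 (0.913 to 1.11; 0 of 6), with Nfe2l1 itself at 0.709 (0.524 to 0.947). The 2 remaining 19S subunits, Adrm1 and Sem1, gave 1.26 (1.14 to 1.38; 1 of 2 past 1.5-fold) and 2.11 (1.89 to 2.35) against saline. Sem1 read 236 CPM in saline, 544 in live Balbc, 443 in live B6, 334 in apoptotic Balbc and 305 in apoptotic B6, with both live libraries highest. Proteasome-bound deubiquitinases and ligases gave 1.12 (0.977 to 1.28; 0 of 4).

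For 2 lists the direction depended on the library compared. Ubiquitin genes gave 1.17 (1.14 to 1.2; 1 of 5 past 1.5-fold, Ubb) against live B6, but 0.940 (0.917 to 0.963) against saline and 0.957 (0.934 to 0.981) against apoptotic Balbc, and live B6 itself was at 0.804 of saline. Endoplasmic reticulum stress genes gave 0.967 (0.916 to 1.02; 0 of 10 higher and 1 lower) against live B6, 1.14 (1.08 to 1.21) against saline and 1.16 (1.10 to 1.23) against apoptotic Balbc. Core assembly factors gave 1.24 against saline and 1.2 against apoptotic Balbc. Shuttle factors gave 1.01 (0 of 5 higher and 1 lower), 1.03 and 1.05, with intervals that include 1, and the NRF1 list 1.00 against saline and 1.05 against apoptotic Balbc. The cell cycle list was 3.45 times as high as in live B6 (3 to 3.97; 5 of 5) and 3.02 times as high as in saline, and its part in the other values was not tested beyond the cells without such UMIs given above.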

How the data were processed

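The authors deposited UMI counts per barcode, without normalization. The apoptotic Balbc file lists 2491 barcodes, none under 500 UMIs, and the other 4 files 6794880 each, so that this library's total covers the listed barcodes only. The submitters' processing notes name Cell Ranger 4.0 and mm10; their settings are not given in the sources used here. All libraries are 3' libraries of 10x Genomics, as the labels say. A barcode counted as a cell with 1000 UMIs or more, 500 genes or more and a mitochondrial share of up to 10%, which left 16271. Scrublet in scanpy 1.11.5 removed 8, 1, 5, 4 and 117 cells (saline, live Balbc, live B6, apoptotic Balbc, apoptotic B6), fewer than the rate given to it, so that doublets remained. With 2000 variable genes, none of the 37 among them, 30 principal components and 15 neighbours, Leiden clustering at resolution 1 gave the clusters. Names needed at least 3 markers.

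Counts of a class were summed per library and scaled to CPM (numpy 2.4.6, scipy 1.17.1). Ratios carry exact conditional Poisson intervals; median log2 ratios carry a pseudocount of 10 CPM. The 1.5-fold limit is a rule of size, not a test. The ratio script was tested on simulated data. Genes named by rule were the active-site genes, the 3 highest and 3 lowest ratios, and the 3 lowest correlations. Further genes, such as Psmd7, Psmc2, Psmb4 and Psma6, were named for the pattern they showed, which their values describe and do not test. The members and lists were chosen with earlier results of these data known.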

Additional observations from a re-analysis of the deposited data

Results flagged for a closer look

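In 5 comparisons the summed level was above 1 in some classes and below 1 in others, with intervals clear of 1. These differences between classes were not tested. Apoptotic Balbc against apoptotic B6 ranged from 0.788 (non-classical monocyte-like) to 1.14 (mature DC-like). Live B6 against apoptotic B6 ranged from 0.702 (neutrophil-like) to 1.16 (mature DC-like). Live B6 against saline ranged from 0.794 (natural killer-like) to 1.245 (red pulp macrophage-like). Apoptotic Balbc against saline ranged from 0.834 (pDC-like) to 1.09 (unnamed cluster 14), where it was 0.972 in thinned cells and 0.943 in cells without a cell cycle UMI. Apoptotic B6 against saline ranged from 0.822 (mature DC-like) to 1.15 (non-classical monocyte-like).

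Barcodes of 10 to 100 UMIs, outside the cells, held the 37 genes at 4758 CPM in saline, 4575 CPM in live Balbc, 4028 CPM in live B6 and 4018 CPM in apoptotic B6. The apoptotic Balbc file lists only barcodes of at least 500 UMIs and gives no such value.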

How the results depend on the processing

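No paired analysis was possible because each group is 1 library, and no replicate was left out for the same reason. Of 88 ratios of the sum, 18 lay on the other side of 1 with size factors, 13 in thinned cells, 7 on the reduced total, 5 at 5% mitochondrial UMIs, 5 as a mean of cells and 2 at 2000 UMIs. Of 72 that could be compared, it was 5 with doublets kept, 4 with proteasome genes left out of clustering, 4 without cell cycle UMIs and 0 at resolution 2; of 8 it was 1 without the smallest cDC2-like cluster. Their reported values were 0.889 to 1.11, and in 18 of these cases the reported interval did not include 1. The unnamed clusters were not matched across clusterings, although with doublets kept a cluster of 193 cells had the leading genes of cluster 21 (192 cells).

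The cDC2-like ratio to live B6 was 1.4 on the reduced gene total and 1.41 with median-of-ratios size factors. In place of 15 genes past 1.5-fold, 9 passed on the reduced total and 10 under size factors. To apoptotic Balbc the ratio was 1.36 (thinned cells), 1.36 (reduced total) and 1.33 (size factors). In place of 10 genes, 7 passed on the reduced total and 4 under size factors. To saline the ratio was 1.30 in thinned cells. In place of 9 genes, 7 passed on the reduced total and 6 under size factors. Between both apoptotic libraries 1 gene passed 1.5-fold in place of 0 with a minimum of 20 UMIs or none. The cDC1-like ratio to live B6 was 1.21 without cell cycle UMIs, 1.21 (reduced total) and 1.17 (size factors); the B-like one 1.17 (thinned), 1.31 (reduced) and 1.37 (size factors); the erythroid-like one 1.01 (thinned), 1.07 (reduced), 1.06 (size factors) and 1.08 (mean of cells).

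The pooled erythroid-like level, 7541 CPM, was 7267 with doublets kept, 7584 at 5% mitochondrial UMIs, 7266 with proteasome genes left out of clustering, 7284 thinned, 11894 on the reduced total and 7390 as a mean of cells. The cDC2-like level, 3686 CPM, was 3590 thinned, 3506 without cell cycle UMIs, 5394 on the reduced total and 3545 as a mean of cells. The marginal zone B-like level, 2681 CPM, was 3082 with doublets kept, 3075 with proteasome genes left out and 2550 at resolution 2. It was 2838 at 5% mitochondrial UMIs, 2629 without cell cycle UMIs and 4757 on the reduced total. Its ratio to the other classes was 0.674 with their median in place of 0.639. With doublets kept or proteasome genes left out, cells were clustered anew, and the class held 1253 and 1240 cells in place of 1198. No cluster was then led by Nfkbid, as cluster 14 had been. The part of this change in class membership in the values was not tested. The erythroid-like immunoproteasome share was 26.0% (doublets kept) and 29.8% (thinned) in saline, and 39.4% and 37.2% in live Balbc. The cDC2-like share in live Balbc was 77.6% (thinned). No interval was computed for the thinned shares. Scrublet had called 8 cells in saline and 1 in live Balbc. With doublets kept or proteasome genes left out, no platelet or megakaryocyte-like class was named. With doublets kept, an erythroid-like cluster of 440 cells had Pf4 among its leading genes. The part of class membership in these shares and in the erythroid-like level was not tested.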
